A study of Rattus norvegicus with 23 samples.

Results

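The genes described here are 10 genes of neutrophil granules and of the neutrophil surface, measured in the lungs of elderly rats after inhalation of a nanostructured titanium dioxide (TiO2) aerosol. They are S100a8, S100a9, Mpo, Elane, Prtn3, Ltf, Ngp, Trem1, Fpr1 and Fpr2, chosen by name and found through the gene symbols of the array. The choice was made with earlier results of these data known. They were read by 11 of the 45598 probes of the array, S100a8 by 2 and each other gene by 1, and 9 of the 10 genes passed the filter on dim probes and were tested among 23058 genes. All rats were male F344 rats, 19 months old when inhalation began. Exposed rats breathed the aerosol at 10 mg/m3 through the nose for 6 hours a day, 5 days a week and 4 weeks, and control rats breathed filtered air. Rats were killed on the day exposure ended (D0) or 28 days later (D28), and RNA of the accessory lobe of 1 rat was put on each single-colour array, giving 6 controls and 5 exposed animals at D0 and 6 of each at D28. One more exposed array at D0 is not analysed here, and the exposed arrays of D28 were placed by their titles and descriptions because their source label names day 0.

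Neutrophils are short-lived white cells that engulf and kill microbes, and in the lung many of them are held in the blood of the capillaries. S100a8 and S100a9 code for calprotectin, the pair of calcium-binding proteins that fills the cytosol of the mature neutrophil. Mpo (myeloperoxidase), Elane (neutrophil elastase) and Prtn3 (proteinase 3) belong to the primary granules, Ltf (lactoferrin) and Ngp (neutrophilic granule protein) to the secondary granules, and the mRNAs of these granule proteins are made mainly by precursors in the bone marrow. Trem1 is a receptor of the surface that amplifies inflammatory signals, and Fpr1 and Fpr2 are receptors for formylated peptides that guide the cells to bacteria and damaged tissue. In RNA of a whole lobe, fewer cells of a type and less RNA per cell cannot be told apart.

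The probes of S100a8 and S100a9 are shown because these genes had the highest correlation among the pairs of tested members below. Both are 60 bases long, read from the array files, with positions in the rn4 build as those files give them. The S100a8 probe lies on chromosome 2 from 182962328 to 182962387, and the S100a9 probe on chromosome 2 from 182987647 to 182987706. No rn4 annotation was used here, so exons and introns are not named.
S100a8: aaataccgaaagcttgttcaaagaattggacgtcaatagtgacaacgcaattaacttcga
S100a9: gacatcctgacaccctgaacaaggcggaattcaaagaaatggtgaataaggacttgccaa
The Fpr2 probe lies on chromosome 1 from 56623812 to 56623871. The array holds another probe named Fpr2l, a name that RefSeq lists as a synonym of Fpr2, and the pair differ at 6 of 60 bases, which stand in capitals.
Fpr2: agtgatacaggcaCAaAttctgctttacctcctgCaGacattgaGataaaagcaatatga
Fpr2l: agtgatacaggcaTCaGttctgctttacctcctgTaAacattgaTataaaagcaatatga
Values of Fpr2 and Fpr2l are therefore uncertain as to which gene copy they report. S100a8 has a further probe, designed to a cDNA record, whose coordinates run in the opposite direction 305 bases from the probe shown, so its target strand is uncertain too.

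Signals are the scanner software's processed signals on the log2 scale after quantile normalization, and a gene was called a DEG with an adjusted p below 0.05 from limma and a fold change (FC) of at least 1.5. S100a8, S100a9, Prtn3, Trem1 and Fpr1 were well above background, by the mark of the scanner software, on 23 of 23 arrays. Fpr2 was so marked on 21 arrays, Ngp on 10 and Mpo on 6. Ltf and Elane were well above background on 0 of 23 arrays, and Elane, with processed signals between 2.53 and 6.78, did not pass the filter. Elane was therefore not tested. Ltf was tested but its values carry no measured level, so its FC is given only through the median of the members and among the alternatives at the end.

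No member was a DEG on either day. With limma, 0 of 9 tested members were called on D0, where 1.8% of all genes tested were called, and 0 of 9 on D28, where 0.755% were called. At an unadjusted p below 0.05, 3 of 9 members passed on D0 (Fpr1, Prtn3 and Ngp, all lower in exposed rats) against 11.9% of all genes, and 2 of 9 on D28 (Prtn3 and Ngp, both lower) against 11% of all genes. The median log2 FC of the 9 members, Ltf included, was -0.19 on D0 and -0.18 on D28, beside -0.00054 and -0.0053 over all genes. The D0 median is the value of Ltf itself, which carries no measured level. The groups did not overlap for 1 member on D0, Fpr1, and for 0 members on D28, against 4.32% and 1.22% of all genes.

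**Figure D1:**
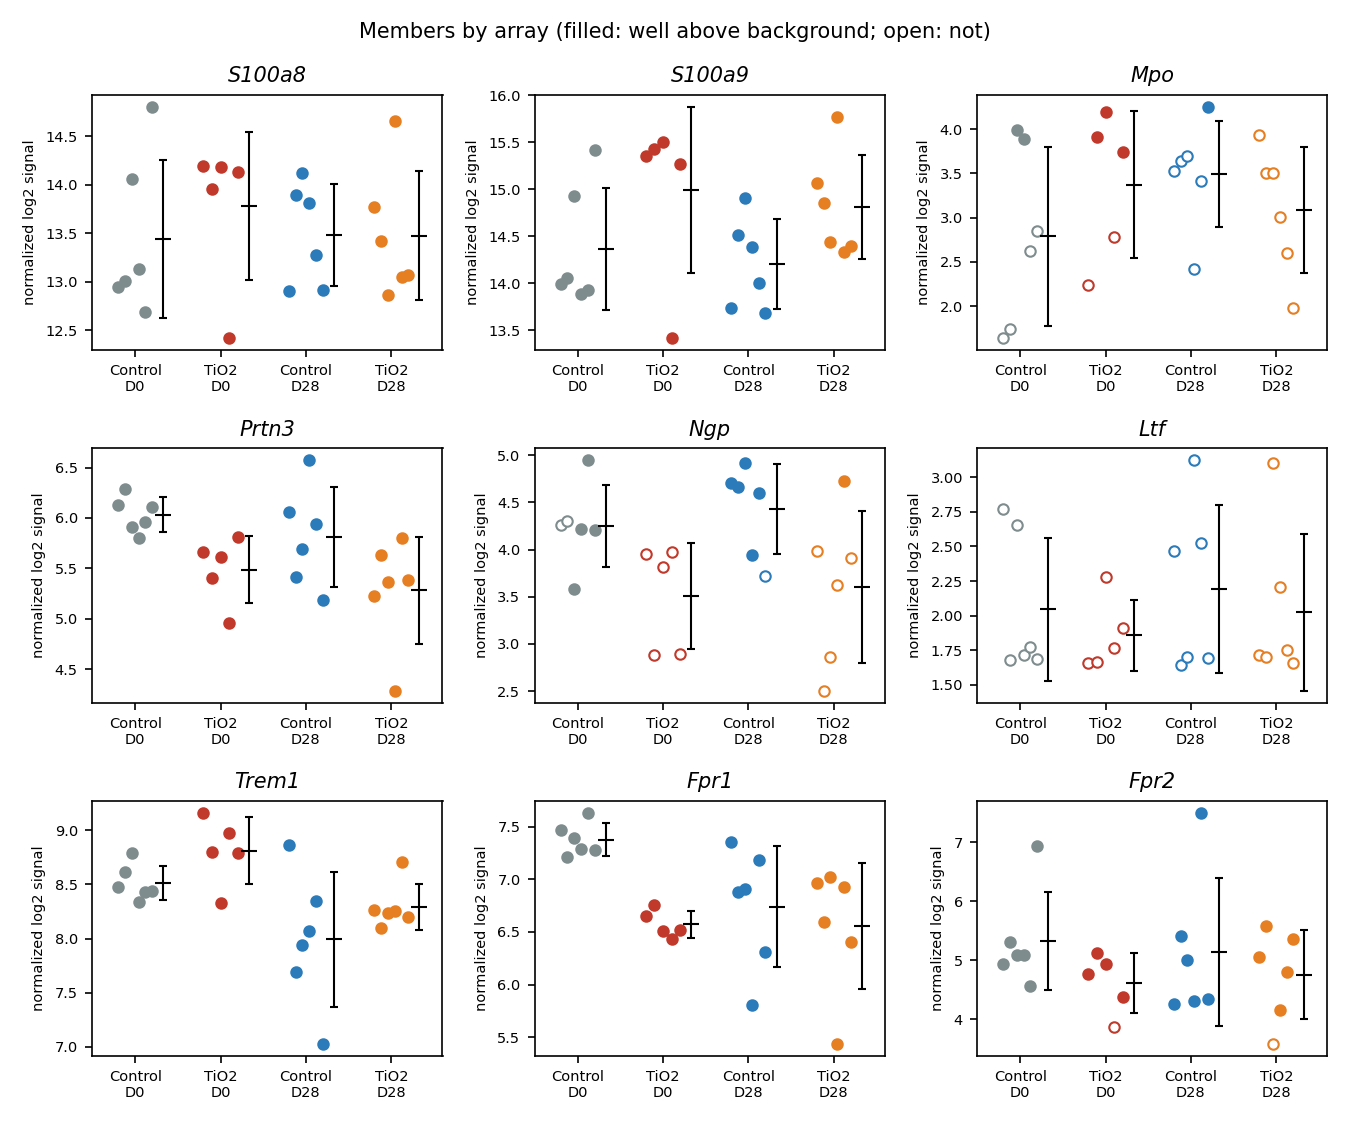
Normalized log2 signal (vertical axes) of 9 members in each array of the 4 groups, where a point is 1 rat, a bar is the mean ± SD, and S100a8 is shown by the probe printed above. Filled points are well above background and open points are not. Fpr1 on D0 is the panel in which exposed and control rats do not overlap, and 1 exposed rat of D0 lies at 13.42 for S100a9, below the other 4.

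S100a9 was higher on average in exposed rats on both days, but rats of a group differed by as much as the groups did. The exposed rats of D0 had normalized log2 signals of 15.35, 15.43, 15.50, 13.42 and 15.27 for S100a9. The controls of D0 ran from 13.88 to 15.42 with a median of 14.02. Of the 5 exposed rats, 4 lay near the highest control, and replicate 4 lay below all controls. The log2 FC on D0 was 0.63 (SE 0.38, adjusted p = 0.612 in limma, exact permutation p = 0.21). On D28 the controls ran from 13.68 to 14.91 with a median of 14.19, and the exposed rats from 14.33 to 15.77 with a median of 14.65. The log2 FC on D28 was 0.61 (SE 0.36, adjusted p = 0.591 in limma, exact permutation p = 0.0736). Within slides, S100a9 was higher in exposed rats on 3 of 4 slides on D0 and on 3 of 3 on D28. Without exposed replicate 4 of D0 the log2 FC of D0 was 1.02, still not called (range of the log2 FC when each array was left out, 0.50 to 1.02).

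S100a8, the partner of S100a9, had smaller differences between group means. By the probe shown, the controls of D0 ran from 12.69 to 14.81 with a median of 13.07, and the exposed rats of D0 had 14.20, 13.96, 14.18, 12.42 and 14.13. On D28 the controls ran from 12.91 to 14.12 with a median of 13.54, and the exposed rats from 12.87 to 14.66 with a median of 13.25. The groups overlapped on both days. With both probes averaged, the log2 FC of S100a8 was 0.27 on D0 (SE 0.40, adjusted p = 0.948 in limma) and 0.05 on D28 (SE 0.38, adjusted p = 0.986 in limma). When each array was left out, the D0 value ran from 0.10 without control replicate 5 of D0 to 0.60 without exposed replicate 4 of D0. The probe shown alone gave 0.34 and -0.01, and the further probe 0.20 and 0.11.

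Rat by rat, S100a8 and S100a9 moved together. After the group means were taken away, their deviations over 23 arrays had a Pearson r of 0.96 and a Spearman rho of 0.93, each with a permutation p of 1e-05, the smallest that 100000 permutations within groups can give. This was the highest of the 36 pairs of tested members by absolute r, the next being Prtn3 and Trem1 with r = 0.39 (rho = 0.37, permutation p = 0.13 and 0.12). Without the 2 arrays farthest from the median of S100a9, r was 0.96, and with a term for the slide it was 0.95. The further S100a8 probe followed the one shown (r = 0.96 over the same arrays, as a description). Exposed replicate 4 of D0 was the lowest array for both genes relative to its group.

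The distance between the S100a9 and S100a8 signals of the same array was nevertheless larger on average in exposed rats on both days. On D28 exposed rats had a difference of 1.34 ± 0.15 (SD, n = 6), from 1.11 to 1.57, where controls had 0.72 ± 0.10 (SD, n = 6), from 0.58 to 0.82. Every exposed rat of D28 lay above every control. The gap between the means was 0.62 on the log2 scale (exact permutation p = 0.00216, two-sided, the smallest that 6 against 6 rats allow). It was 0.52 to 0.67 on each of the 3 slides that held both groups, 0.57 to 0.67 with any 1 array left out, 0.50 with the further S100a8 probe and 0.64 in the signals before normalization. On D0 exposed rats had 1.22 ± 0.18 (SD, n = 5) where controls had 0.93 ± 0.22 (SD, n = 6), the groups overlapped, and the gap was 0.29 (exact permutation p = 0.0476). On slide 3 of D0 the order was the opposite, with a gap of -0.14. This measure was chosen after the values were seen, so its permutation p values are descriptions and not tests of a question set beforehand. Of the 36 pairs of members, S100a8 and S100a9 were the only 1 whose within-array differences did not overlap on D28. On D0 there was also 1 such pair of 36, Trem1 and Fpr1, and not S100a8 and S100a9. The share among pairs of all genes was not computed. The deviations of the difference had r = -0.18 with those of S100a9 over 23 arrays, as a description. A within-array difference compares the signals of the pair, and does not tell which of them differed.

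**Figure D2:**
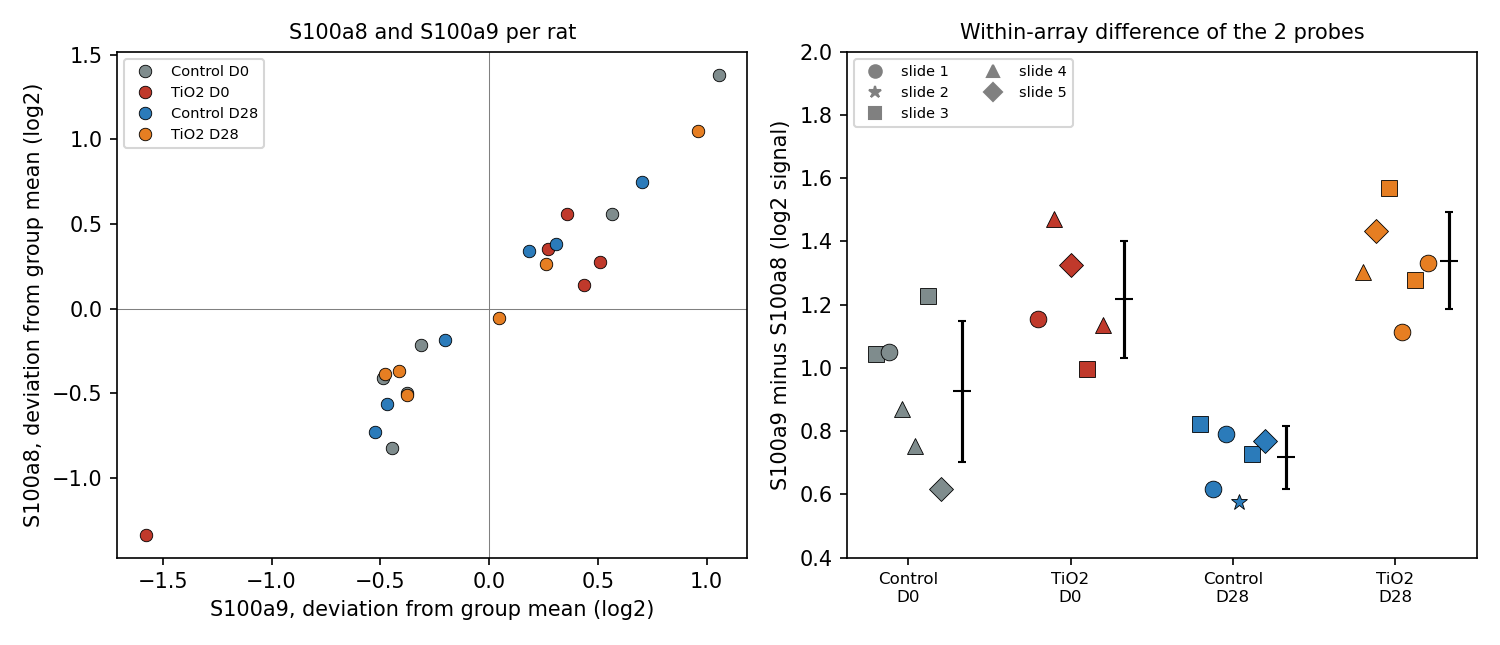
Left, deviation of S100a8 (both probes averaged) from its group mean against that of S100a9, in log2 units, 1 point per rat, with r = 0.96. Right, the S100a9 signal minus the S100a8 signal (probe shown) of each array, in log2 units, by group and slide with mean ± SD; the 6 exposed rats of D28 sit from 1.11 to 1.57, above the 6 controls at 0.58 to 0.82.

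The receptors for formylated peptides were lower in exposed rats on D0, without passing the test. Fpr1 read 6.65, 6.76, 6.50, 6.43 and 6.52 in the exposed rats of D0, and from 7.21 to 7.63 with a median of 7.34 in the controls. All exposed rats lay below all controls, with a log2 FC of -0.80 (FC of 1.75, SE 0.26, 95% confidence interval -1.34 to -0.27) and an adjusted p of 0.111 in limma. The exact permutation p was 0.00216, the smallest that 5 against 6 rats allow. Fpr1 was lower in exposed rats on 4 of 4 slides on D0, by -1.12 to -0.56. Its call differed between fits: it was a DEG on D0 with the slide as a block (log2 FC -0.76, adjusted p = 0.0294), with only the arrays of D0 in the fit (-0.80, adjusted p = 0.0035), with the deposited table (-0.66, adjusted p = 0.0462), with the replicate number as a block (-0.85, adjusted p = 0.0296), and without exposed replicate 4 of D28 (-0.80, adjusted p = 0.0329). On D28 the controls ran from 5.81 to 7.35 and the exposed rats from 5.44 to 7.02, with a log2 FC of -0.18 (SE 0.25, adjusted p = 0.878 in limma). All exposed rats of D0 lay within the range of the D28 controls. Group means of Fpr1 were 7.38 in controls and 6.57 in exposed rats of D0, and 6.74 and 6.56 on D28. The difference between the effects of the days was 0.62 (SE 0.36, adjusted p = 0.9998 in limma, unadjusted p = 0.0947), so a change of the Fpr1 effect between D0 and D28 was not shown.

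Fpr2 varied more. The controls of D0 ran from 4.56 to 6.94 with a median of 5.09, and the exposed rats had 4.77, 5.13, 4.93, 3.86 and 4.38. The log2 FC was -0.71 on D0 (SE 0.52, adjusted p = 0.736 in limma) and -0.38 on D28 (SE 0.49, adjusted p = 0.874 in limma). A single control on each day carried much of these values, replicate 6 of D0 at 6.94 and replicate 5 of D28 at 7.51, and without them the log2 FC was -0.38 on D0 and 0.09 on D28. The near-identical Fpr2l probe read from 6.60 to 6.92 in the exposed rats and from 7.12 to 9.16 in the controls of D0, with no overlap and a log2 FC of -0.90 (SE 0.29, adjusted p = 0.115 in limma). Control replicate 6 of D0 was the highest array for both probes, at 9.16 for Fpr2l, whereas control replicate 5 of D28 was high for Fpr2 and read 7.03 for Fpr2l. Fpr3, a further receptor of the family, had a log2 FC of -1.27 on D0 (SE 0.55, adjusted p = 0.326 in limma).

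Trem1, which is also carried by macrophages and monocytes, was higher on average in exposed rats on both days and did not pass the test. The controls of D0 ran from 8.34 to 8.79 with a median of 8.46, and the exposed rats read 9.16, 8.80, 8.33, 8.97 and 8.79. The log2 FC was 0.30 on D0 (SE 0.22, adjusted p = 0.747 in limma) and 0.30 on D28 (SE 0.21, adjusted p = 0.683 in limma). On D28 the controls spread from 7.03 to 8.87, wider than the exposed rats at 8.10 to 8.71.

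Of the granule genes made in marrow precursors, Prtn3 and Ngp were lower on average in exposed rats on both days and did not pass the test. Prtn3 read 5.66, 5.40, 5.61, 4.96 and 5.81 in the exposed rats of D0 and from 5.80 to 6.29 in the controls, so that the groups met at their edges only. Its log2 FC was -0.54 on D0 (SE 0.24, adjusted p = 0.343 in limma, exact permutation p = 0.00433) and -0.53 on D28 (SE 0.23, adjusted p = 0.374 in limma, exact permutation p = 0.0996). Prtn3 was lower on 4 of 4 slides on D0 and on 2 of 3 on D28, with a difference of 0.45 in the other direction on slide 5.

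Ngp was well above background on 4 of 6 controls and 0 of 5 exposed rats on D0, and on 5 of 6 controls and 1 of 6 exposed rats on D28. The level of the exposed rats of D0 is thus only bounded, and the fitted log2 FC was -0.75 (SE 0.34, adjusted p = 0.371 in limma, exact permutation p = 0.0368). On D28 the controls ran from 3.72 to 4.91 and the exposed rats from 2.50 to 4.72, with a log2 FC of -0.83 (SE 0.33, adjusted p = 0.301 in limma, exact permutation p = 0.0671). The difference was negative on 4 of 4 slides on D0 and 3 of 3 on D28. With normexp background correction the log2 FC of Ngp was -0.14 on D0 and -0.13 on D28.

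Mpo was near background. It was well above background on 2 of 6 controls and 3 of 5 exposed rats on D0, with a log2 FC of 0.58 (SE 0.46, adjusted p = 0.785 in limma). On D28 it was well above background on 1 of 6 controls and 0 of 6 exposed rats, with a fitted log2 FC of -0.40 (SE 0.44, adjusted p = 0.839 in limma) between values that were nearly all not well above background. With normexp background correction the log2 FC of Mpo was 0.022 on D0 and -0.041 on D28.

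**Figure D3:**
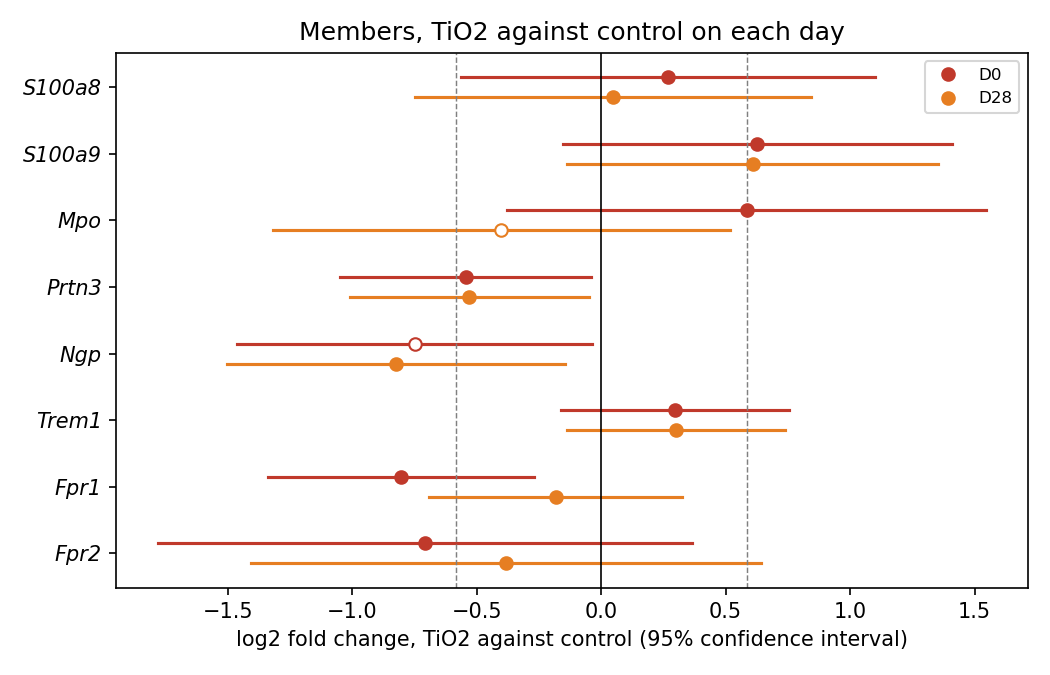
Log2 FC of exposed against control rats (horizontal axis) for 8 members on D0 and D28, with 95% confidence intervals from limma and dashed lines at a FC of 1.5. Open points are fitted values where no exposed array was well above background (Ngp on D0, Mpo on D28); the intervals of Fpr1, Prtn3 and Ngp on D0 and of Prtn3 and Ngp on D28 lie below 0, and Fpr1 on D0 is the lowest on that day at -0.80.

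The day of killing made no member a DEG in rats of the same treatment. Between controls of D28 and D0, 0 of 9 members were called with limma, where 0.616% of all genes were, and 2 of 9 passed an unadjusted p below 0.05, where 13.3% of all genes did. These were Fpr1 (log2 FC -0.64, SE 0.25, adjusted p = 0.257 in limma) and Trem1 (-0.52, SE 0.21, adjusted p = 0.278 in limma). Between exposed rats of D28 and D0, 0 of 9 were called against 0.351% of all genes, and 1 of 9 passed unadjusted, Trem1 at -0.52 (SE 0.22, adjusted p = 0.584 in limma), against 7.71% of all genes. For the difference between the effects of exposure on the days, 0 of 9 were called against 0.0304% of all genes, and 0 of 9 passed unadjusted against 3.45%. Mpo, with a log2 difference of 0.70 between the controls of the days (adjusted p = 0.523 in limma), was called with the slide as a block (1.40, adjusted p = 0.0111), a fit in which control replicate 4 of D28, alone on its slide, carries no weight; in the deposited table the value was -0.02.

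Lists of other genes of the same granules and membranes held DEGs. These lists, like the members, were chosen with earlier results of these data known, so the contrast between them is a description. Of 21 other granule proteins tested, 4 were over-expressed and 0 under-expressed on D0, where 1.8% of all genes were called. On D28, 3 were over-expressed and 0 under-expressed, where 0.755% were called. The median log2 FC of the list was 0.08 on D0 and 0.05 on D28. Lcn2 (lipocalin 2, which binds bacterial siderophores) had a log2 FC of 1.65 on D0 (SE 0.28, adjusted p = 0.00138 in limma) and 0.73 on D28 (adjusted p = 0.231). Chi3l1, a chitinase-like protein, was over-expressed by 1.19 on D0 and 0.95 on D28 (adjusted p = 0.00616 and 0.0371 in limma). Hp (haptoglobin, which binds free haemoglobin) was over-expressed by 0.91 and 0.76 (adjusted p = 0.000921 and 0.00723 in limma). Ptx3, a pentraxin of the innate response, was over-expressed by 0.80 and 1.03 (adjusted p = 0.039 and 0.0106 in limma). As background, Lcn2, Chi3l1, Hp and Ptx3 are also made by epithelial cells, macrophages or other cells of the lung.

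Of 22 other surface receptors, 2 were over-expressed on each day and 0 under-expressed, against 1.8% of all genes called on D0 and 0.755% on D28. The list had a median log2 FC of 0.17 on D0 and 0.16 on D28. Itgam (CD11b, an integrin chain that macrophages and monocytes also carry) was over-expressed by 0.99 on D0 and 0.93 on D28 (adjusted p = 0.000124 and 0.0003 in limma). Cd177, a neutrophil surface protein that presents proteinase 3, was over-expressed by 1.095 and 1.06 (adjusted p = 0.0279 and 0.0426 in limma). Cxcr2 and Csf3r, the receptors for neutrophil-attracting chemokines and for the growth factor G-CSF, had log2 FC of -0.12 and -0.19 on D0 and of -0.14 and -0.10 on D28 (adjusted p between 0.937 and 0.987 in limma). Neither the 5 subunits of the phagocyte oxidase nor the 6 partners and ligands of the members held a DEG on either day, with median log2 FC of 0.32 and 0.12 on D0. The oxidase subunits Cyba and Ncf1 passed the adjusted p on D0 below the FC of 1.5, at 0.34 and 0.57 (adjusted p = 0.00737 and 0.00796 in limma), and Cyba also on D28, at 0.30 (adjusted p = 0.0266 in limma).

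The calls of Cd177, Ptx3 and Chi3l1 were near the threshold. When each of the 23 arrays was left out in turn, Cd177 kept its call in 17 fits on D0 and 4 on D28, Ptx3 in 14 on D0 and 23 on D28, and Chi3l1 in 23 on D0 and 14 on D28, with adjusted p of at most 0.112. Itgam and Hp kept theirs in 23 of 23 on each day, and Lcn2 in 23 of 23 on D0.

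The 5 genes outside the members whose deviations were most like those of S100a9 over 23 arrays, by Pearson r after the group means were taken away, were Il1r2 (a decoy receptor for interleukin 1) with r = 0.96, Slc16a3 (a lactate transporter) with 0.91, Il1b (interleukin 1 beta) with 0.86, Saal1 with 0.84 and Clec4d (a lectin receptor of myeloid cells) with 0.84. Without the 2 arrays farthest from the median these r were 0.95, 0.86, 0.81, 0.74 and 0.80, and with a term for the slide 0.97, 0.92, 0.77, 0.87 and 0.82. The arrays share slides and normalization, so these values are descriptions. The median r over all genes tested was 0.0087. Of the 5, Saal1 was a DEG, over-expressed by 2.78 on D0 and 2.40 on D28, while Il1r2 had a log2 FC of 0.77 and 0.31, and Clec4d one of 0.07 and 0.10, without passing the test.

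Among other receptors and granule proteins, r with S100a9 was 0.84 for Cxcr2, 0.77 for Pglyrp1 and 0.64 for Csf3r, of which 0 were DEGs. It was negative for others, with -0.79 for Ctsc, -0.69 for Cd300lf, -0.63 for Fcgr3a, -0.57 for Cxcr1 and -0.47 for Bpi, of which 0 were DEGs. It was 0.70 for Hp, 0.51 for Lcn2, 0.43 for Ptx3, 0.37 for Cd177, 0.28 for Itgam and 0.21 for Chi3l1, the genes over-expressed on D0. Of the members, Fpr1 had r = -0.24, Fpr2 0.33 and Trem1 -0.11 with S100a9.

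**Figure D4:**
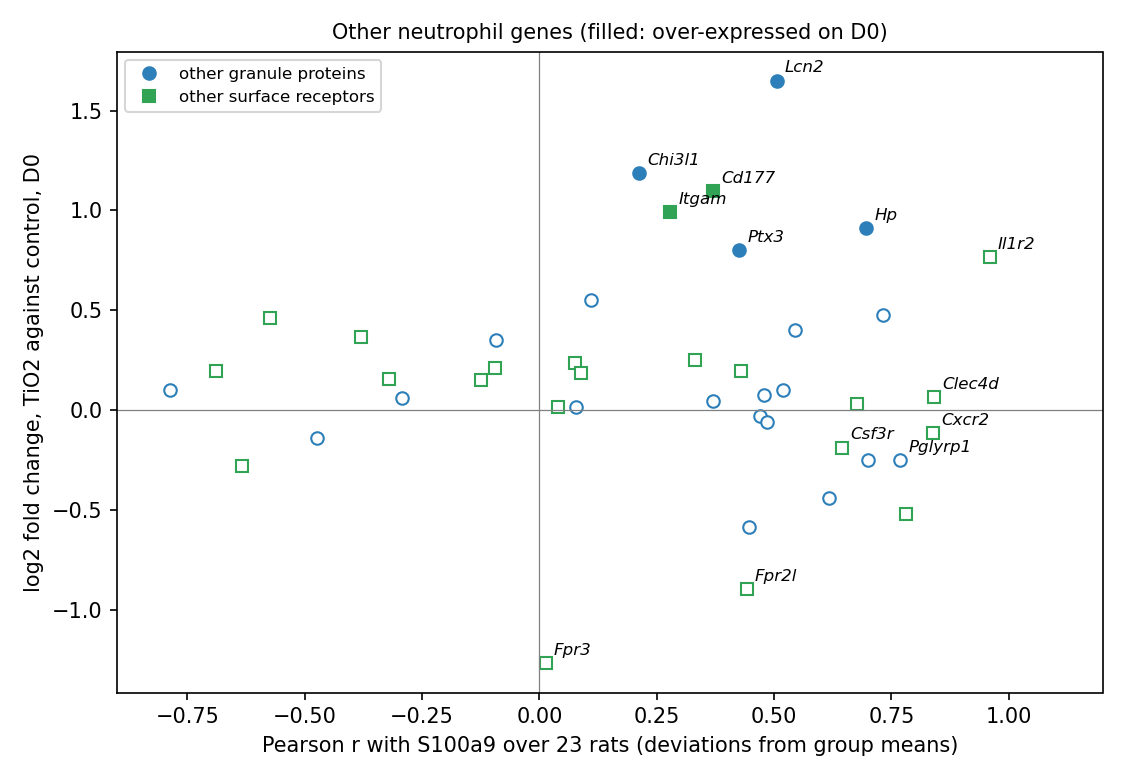
Log2 FC on D0 (vertical axis) of 21 other granule proteins and 22 other surface receptors against the Pearson r of their deviations with those of S100a9 over 23 rats (horizontal axis), with filled symbols for genes over-expressed on D0. Il1r2 and Cxcr2 lie at the right, at r of 0.96 and 0.84, with open symbols, and the 6 filled symbols lie at r of 0.21 to 0.70.

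Some markers of other cells moved with exposure as well, in lists also chosen with earlier results known. Over all genes, 1.8% were called on D0 and 0.755% on D28. Of 14 macrophage genes, 2 were over-expressed on D0, Siglec1 at 0.89 and C1qb at 0.65 (adjusted p = 0.0026 and 0.00779 in limma), and 0 on D28; C1qb fell below the FC limit without exposed replicate 4 of D0 (0.50), and the mean log2 signal of the list ran from 9.43 to 9.86 in exposed rats of D0 and from 9.06 to 9.30 in controls. Cd68 of the same list passed the adjusted p below the FC limit on both days, at 0.55 and 0.42 (adjusted p = 0.00291 and 0.0294 in limma). Of 10 red cell genes tested, 1 was under-expressed on D0, Ahsp at -0.90 (adjusted p = 0.000936 in limma), with a median of -0.41 on D0 and -0.46 on D28 over the list. The mean log2 signal of the red cell list ran from 10.5 to 10.7 in exposed rats of D0 and from 10.7 to 11.2 in controls, and from 10.1 to 10.9 and 10.6 to 11.5 on D28. Among 8 genes of granulocyte progenitors, 1 was called, the cell cycle gene Mki67 at 1.11 on D0. The list as a whole had a median log2 FC of -0.08 on D0, with 4 of 8 genes higher, and 0.14 on D28, with 6 of 8 higher. The monocyte (9 genes), eosinophil (4), mast cell (8), platelet (6), lymphocyte (12) and lung epithelium (8) lists held 0 DEGs on either day, and the eosinophil gene Epx and the mast cell gene Mcpt1 were well above background on 0 arrays. Without a DEG, 0 of the 8 mast cell genes were higher in exposed rats on D0 (median log2 FC -0.39), and 3 on D28 (median -0.03). Sftpd of the lung epithelium list passed the adjusted p on D0 below the FC limit, at 0.37 (adjusted p = 0.0468 in limma), and not on D28 (0.27, adjusted p = 0.207 in limma). The mean log2 signal of the lung epithelium list was between 13.3 and 13.6 on all arrays. The part of macrophages and of blood held in the lobe in the values of the neutrophil genes was not tested.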

How the data were processed

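Total RNA of the accessory lobe was hybridised to Agilent SurePrint G3 rat arrays by the authors, 1 rat per array, and scanned in 1 colour. The authors deposited the intensity of each spot from Agilent Feature Extraction (version 11.0.1.1 on 22 arrays, 12.0.1.1 on 1), and a table of intensities quantile normalized between arrays by the authors. The processed signal is corrected for background and not normalized between arrays. The members and gene lists were chosen with earlier results of these data known.

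Gene names were those in the file of the later software version. Spots flagged as outliers were left out, log2 processed signals were taken, and probes were kept (40417 of 45598) if 5 or more arrays read above the 95th percentile of their 308 negative controls. These were quantile normalized, and probes were averaged to 23058 genes. Only a gene with a missing value (29, none of them a member) was fitted on fewer arrays. The 75th percentile of the signals of an array ran from 1383 to 3470, between 69.5% and 77.9% of spots were well above background, and arrays correlated with r of at most 0.989, so none was a duplicate. The number of arrays limits the precision.

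A model with 4 group means and 19 residual degrees of freedom was fitted with limma (version 3.58.1 in R 4.3.3), with Benjamini-Hochberg adjustment over all genes. On simulated arrays of the D0 comparison, 59% of genes changed by 1 and 91% of genes changed by 2 on the log2 scale were called. The changed genes were drawn from all genes, each with its own spread. These shares are therefore not those of the members, whose SE on D0 ran from 0.22 (Trem1) to 0.52 (Fpr2). Exact permutation tests were two-sided. Named were the members, DEGs of the other lists (at most 6 per list and contrast), and the 5 genes most like S100a9; genes named beyond these were chosen after their values were seen. Alternatives were other scalings, background correction, filters, probe rules, blocks, and each array left out. Of the probes of members, 8 of 11 had a RefSeq accession that matched the same symbol in the GRCr8 gene table. Some items are not reported here.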

Additional observations from a re-analysis of the deposited data

Results flagged for a closer look

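In 36 combinations of a member and a group, 5 arrays lay far from the rest of their group by Dixon's ratio, the gap to the nearest array over the range of the group. Chance flags about 1 in 20 groups. Exposed replicate 4 of D0 was the lowest for S100a9, at 13.42 against 15.27 for the next (ratio 0.886), and for S100a8, at 10.08 against 11.55 with both probes averaged (ratio 0.777). This array also had the lowest share of spots well above background of all arrays, 69.5%. Its 75th percentile of signals, 1445, was the lowest of the D0 arrays, while exposed replicates 3 and 4 of D28 had lower ones, 1383 and 1434. The part of array quality in its values was not tested. Exposed replicate 5 of D28 was the highest for Trem1, at 8.71 against 8.26 (ratio 0.730). Control replicate 6 of D0 was the highest for Fpr2, at 6.94 against 5.31 (ratio 0.683). Control replicate 5 of D28 was the highest for Fpr2, at 7.51 against 5.42 (ratio 0.643).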

How the results depend on the processing

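No member was called on D28, or for the difference between days, under any alternative run. The number of members called on D0 was 0, and 1 (Fpr1) with the deposited table, with only the arrays compared, with the slide block and with the replicate block, and 0 to 1 with each array left out. Between the control groups 1 member (Mpo) was called with the slide block. The fit with the replicate number as a block otherwise called no member. Samples of the same number had deviations with r from -0.22 to -0.12 on D0 and from -0.17 to 0.46 on D28, so the numbers were not taken to pair rats. Among all genes, normexp background correction gave 222 DEGs on D0, 94 on D28 and 14 for the difference, for which the filter on the well-above-background mark gave 13 and the trend with robust estimation 12. With only the arrays compared, 41 were called on D28 and 28 between exposed rats of the days, where the slide block gave 128. With each array left out, the DEGs numbered 111 to 203 on D28 (111 without exposed replicate 1 of D28), 89 to 203 between controls (89 without control replicate 2 of D28, 92 without control replicate 1 of D0), and 6 to 12 for the difference. The causes of these shifts were not tested.

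Outside the members, some calls were lost. Ptx3 on D0 was not called with each probe on its own or with the replicate block (adjusted p = 0.053 and 0.0647 in limma). Cd177 was not called on D0 with only the arrays compared or the replicate block (0.0854 and 0.0583), nor on D28 with each probe, only the arrays compared or the replicate block (0.0619, 0.079 and 0.0638). On D28 Chi3l1 was not called with each probe or only the arrays compared (0.0542 and 0.197), and Hp and Ptx3 not with only the arrays compared (0.0647 and 0.0847).

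Directions turned for some member values that were not called, most of them near 0 (not Mpo, at 0.70 between controls and -0.28 between exposed rats of the days). With normexp, uncalled values also shrank, to -0.23 and -0.20 for Prtn3, -0.51 and -0.11 for Fpr1 and -0.24 and -0.19 for Fpr2 on D0 and D28. For the difference between days, 75th percentile scaling gave -0.055 for Prtn3, 0.020 for S100a9 and -0.064 for Trem1, normexp 0.0095 for Ngp and -0.027 for Trem1, the deposited table -0.052 for Prtn3 and -0.0088 for Trem1, no filter -0.0052 for Ltf, and the slide block 0.077 for S100a9 and -0.024 for Trem1. Between exposed rats of the days, Fpr1 was 0.015 with normexp, 0.056 with the deposited table, 0.00076 with the well-above-background filter, 0.0050 with the slide block and 0.031 with the replicate block, Ngp was -0.035 with 75th percentile scaling and -0.077 with the slide block, and Mpo 0.096 with the slide block. Between controls, Fpr2 was 0.0090 with normexp, 0.034 with the deposited table and 0.00054 with the slide block, Mpo -0.023 with the deposited table, Ltf -0.012 with the slide block, and S100a8 0.045 by its brighter probe, which gave -0.012 on D28. Ltf on D28 was 0.024 with the slide block.

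With each array left out, values on D28 ran from -0.37 to 0.041 for Fpr1, -0.56 to 0.091 for Fpr2, -0.39 to 0.018 for Ltf and -0.16 to 0.20 for S100a8. The difference between days ran from -0.20 to 0.21 for Ltf, -0.30 to 0.14 for Ngp, -0.12 to 0.21 for Prtn3, -0.41 to 0.12 for S100a9 and -0.19 to 0.18 for Trem1. Between controls the ranges were -0.66 to 0.14 for Fpr2, -0.040 to 0.29 for Ltf, -0.25 to 0.19 for S100a8 and -0.31 to 0.046 for S100a9. Between exposed rats they were -0.11 to 0.21 for Fpr1, -0.044 to 0.38 for Fpr2, -0.050 to 0.27 for Ltf and -0.13 to 0.32 for Ngp. Signals near background limit Mpo, Ngp and Ltf.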
